A study of Arabidopsis thaliana with 6 samples.

Results

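The 10 genes described here encode proteins of the Arabidopsis thaliana nuclear envelope: the SUN proteins SUN1 and SUN2, the KASH proteins WIP1, WIP2 and WIP3, their partners WIT1 and WIT2, and the coiled-coil proteins NEAP1, NEAP2 and NEAP3. They were picked by gene identifier, with no measured value in the rule, and all 10 were among the 32833 genes of the count table. Their messenger RNA was compared between gbpl3 mutant seedlings and Col-0 wild-type seedlings, with 3 libraries per genotype. GBPL3, a relative of guanylate-binding proteins, is named by the series as part of the nuclear pore's basket. Whole seedlings 7 days of age were used, without treatment, after growth on half-strength MS plates that held 1% sucrose, and each extraction used about 50 mg of tissue. The labels name the mutant libraries gbpl3_1, gbpl3_2 and gbpl3_3 and do not describe the allele. These were read as replicates because the series speaks of triplicates. Whether libraries represent separate cultures is not said either, and the spread behind each p-value may therefore be technical.

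The nucleus is wrapped in a double membrane, and LINC complexes bridge it. SUN proteins sit in the inner membrane and reach into the space between the membranes, where their SUN domain holds the short tail of a KASH protein that is anchored in the outer membrane. In Arabidopsis the WIP proteins are such KASH proteins. Together with the WIT proteins they hold RanGAP, the activator of Ran GTP hydrolysis, at the envelope, and WIT proteins also bind the myosin XI-i, which moves and shapes the nucleus. NEAP proteins are anchored at the inner membrane, interact with SUN proteins and affect nuclear shape.

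The KASH tail is encoded at the very end of the WIP reading frames, and only this short stretch is compared here between the 3 relatives. The last 30 coding bases of each, stop codon included, are given 5′ to 3′ on the coding strand from the RefSeq TAIR10.1 genome, and capitals mark the 13 positions that all 3 genes share. The stretches are chr4:13367355-13367384 (plus strand) for WIP1, chr5:22750660-22750689 (minus strand) for WIP2 and chr3:4338472-4338501 (minus strand) for WIP3.
WIP1: CCgGagcCagatactGttgTaCCcACaTGA
WIP2: CCaGaacCggagattGctgTtCCcACaTGA
WIP3: CCtGcttCacgattaGtaaTaCCaACtTGA
Both codons before the stop begin alike in all 3, with CC and AC, the codon families of proline and threonine.

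Reads from relatives are most readily confused where their sequences match over a read. Coding sequences alone were compared, without untranslated bases, and the read filters used are not given. Sequencing gave paired reads of 150 bases, and the longest identical coding stretch between any pair of relatives compared here was 28 bases, between NEAP1 and NEAP2. WIP1 and WIP2 shared up to 27 bases. Both stretches are shown with flanks of 10 bases, with the shared run in capitals. They lie at chr5:9408723-9408770 (minus strand, NEAP2), chr3:1737719-1737766 (plus strand, NEAP1), chr5:22752142-22752188 (minus strand, WIP2) and chr4:13366014-13366060 (plus strand, WIP1).
NEAP2: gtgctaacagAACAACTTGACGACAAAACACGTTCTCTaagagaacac
NEAP1: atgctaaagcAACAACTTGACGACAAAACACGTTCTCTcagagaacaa
WIP2: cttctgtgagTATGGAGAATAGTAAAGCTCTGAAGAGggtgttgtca
WIP1: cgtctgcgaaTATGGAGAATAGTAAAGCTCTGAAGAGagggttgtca
Over aligned coding bases, identity was 80.2% for NEAP2 and NEAP1, 76.1% for SUN2 and SUN1, 75.3% for WIP2 and WIP1 and 64.4% for WIT2 and WIT1. The other 4 pairs lay between 66.8% and 68.0%.

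GBPL3 (AT5G46070) had 156, 243 and 168 counts in gbpl3 replicates 1 to 3, against 790, 827 and 646 counts in Col-0 replicates 1 to 3. Its log2 fold change was -2.04 (SE 0.12, edgeR's quasi-likelihood test, p-values adjusted by Benjamini-Hochberg over all tested genes, adjusted p = 5.11e-09), so the libraries matched their labels. Total counts ran from 10836165 to 12911891 in gbpl3 libraries and from 9530643 to 12104120 in Col-0 libraries. Of 5 marker lists for cells and tissues of seedlings, the summed levels of 4 did not overlap between genotypes, and those of the shoot list did. Summed levels of 12 markers of dividing cells were 227 to 243 CPM (counts scaled to library size) in gbpl3 and 301 to 330 CPM in Col-0, with 3 markers lower in gbpl3, none higher and 9 not called. The 5 root hair markers summed to 104 to 154 CPM in gbpl3 and 38.5 to 48.6 CPM in Col-0, with 3 higher. The 8 seed markers summed to 18.9, 90.6 and 221 CPM in gbpl3 replicates 1 to 3 and to 0.262 to 2.05 CPM in Col-0, where 4 of them were at 0 counts. Of 4 root markers, 2 were lower in gbpl3 (84.2 to 108 CPM summed, against 139 to 174 CPM in Col-0). Of 5 photosynthetic shoot markers, 2 were higher and 3 not called (29613 to 34844 CPM summed in gbpl3, against 26503 to 29634 CPM in Col-0). The part of these marker levels in the values below was not tested, and in RNA from whole seedlings fewer cells of a type and less RNA per cell cannot be told apart.

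None of the 10 LINC and envelope genes passed the test between gbpl3 and Col-0. All 10 passed the filter on low counts, and 0 were called at an adjusted p of 0.05 by edgeR, beside 10.7% of the 20677 genes tested (6.06% higher and 4.69% lower in gbpl3). For 10 genes a count of 0 is near that share, so it does not set them apart. At an unadjusted p under 0.05 there was 1 gene, WIT1, against 23.6% of all tested genes, and DESeq2 and limma also called none. The share called over all genes was 4.52% without gbpl3 replicate 3, 5.1% without gbpl3 replicate 1 and 6.54% without Col-0 replicate 3. It was 7.58% without Col-0 replicate 1, 9.52% without gbpl3 replicate 2 and 12.7% without Col-0 replicate 2. By limma it was 2.02% to 4.18%, and with the replicate number in the edgeR model 7.42%. Log2 fold changes ran from -0.45 for NEAP3 to 0.33 for SUN2, with 6 above and 4 below 0. Their median was 0.043 and the median of their sizes 0.106, beside -0.0034 and 0.205 over all tested genes. The tested genes were not matched to the members in counts, so the sizes are not directly comparable. The 95% confidence intervals, each for 1 gene and not adjusted for the number of genes, lay within a 2-fold change either way for all 10, within 1.5-fold for 7 and within 1.25-fold for SUN1 and WIP3.

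**Figure D1:**
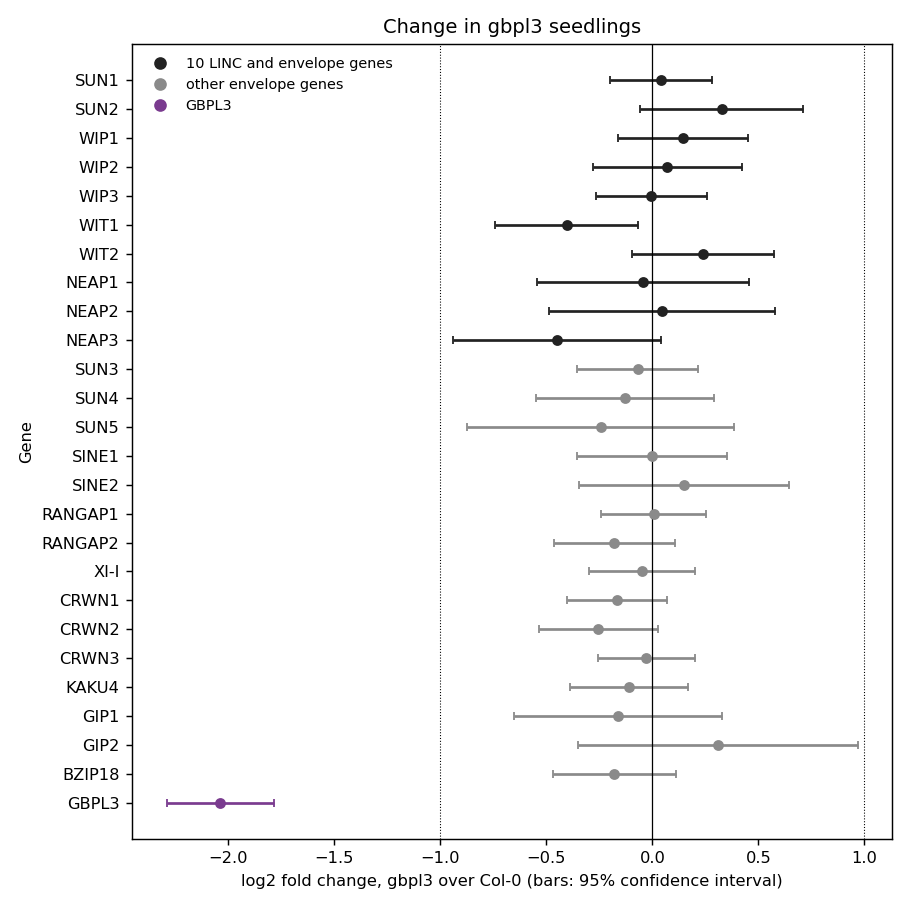
Log2 fold change of gbpl3 over Col-0 (horizontal axis) for the 10 LINC and envelope genes (black), 15 other tested envelope genes (grey) and GBPL3 (purple), with bars for the 95% confidence interval of each gene and dotted lines at a 2-fold change. The intervals of the 10 genes lie between the dotted lines, and that of WIT1 does not reach 0, while GBPL3 is at -2.04.

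Neither SUN gene passed the test. SUN1 (AT5G04990, chr5:1471481-1474029, minus strand, 2 exons) had 38.7, 35.2 and 35.3 CPM in gbpl3 replicates 1 to 3, against 33.2, 38.2 and 34.7 CPM in Col-0 replicates 1 to 3. The groups overlapped, and the fold change of 1.03 had an interval of 0.872 to 1.21 (adjusted p = 0.883). SUN1 had the smallest SE of the 10 genes, 0.11 on the log2 scale, with 1243 counts over the gbpl3 libraries and 1185 over the Col-0 libraries.

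SUN2 (AT3G10730, chr3:3358288-3360702, minus strand, 2 exons) had 20.5, 15.5 and 18.2 CPM in gbpl3, against 16.6, 10.3 and 16.5 CPM in Col-0. Col-0 replicate 2 was the lowest of all 6 libraries, and the other Col-0 libraries lay within the range of gbpl3. The log2 fold change was 0.33 (SE 0.18, interval of the fold 0.961 to 1.64, adjusted p = 0.30). Without Col-0 replicate 2 it was 0.13 (adjusted p = 0.704), so that 1 library moved this uncalled estimate by more than any other.

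None of the 3 WIP genes, which encode the KASH proteins, passed the test, and their groups overlapped. WIP1 (AT4G26455, chr4:13365283-13367531, plus strand, 2 exons) had 18.6, 16.9 and 16.1 CPM in gbpl3, against 15.1, 16.7 and 14.8 CPM in Col-0. Its fold change was 1.10 with an interval of 0.894 to 1.36 (adjusted p = 0.615), and gbpl3 replicate 3 lay below Col-0 replicate 2.

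WIP2 (AT5G56210, chr5:22750462-22752817, minus strand, 2 exons) had 15.2, 12.5 and 12.5 CPM in gbpl3, against 13.3, 13.7 and 11.2 CPM in Col-0. Gbpl3 replicate 1 was the highest library and the groups overlapped (fold change 1.05, interval 0.823 to 1.34, adjusted p = 0.86). WIP3 (AT3G13360, chr3:4338250-4340446, minus strand, 2 annotated transcripts) had 25.4, 31.5 and 29.1 CPM in gbpl3, against 29.4, 30.1 and 26.8 CPM in Col-0. The lowest and the highest of the 6 libraries were both gbpl3 libraries. Its fold change was 0.996, with an interval of 0.831 to 1.20 (adjusted p = 0.989).

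**Figure D2:**
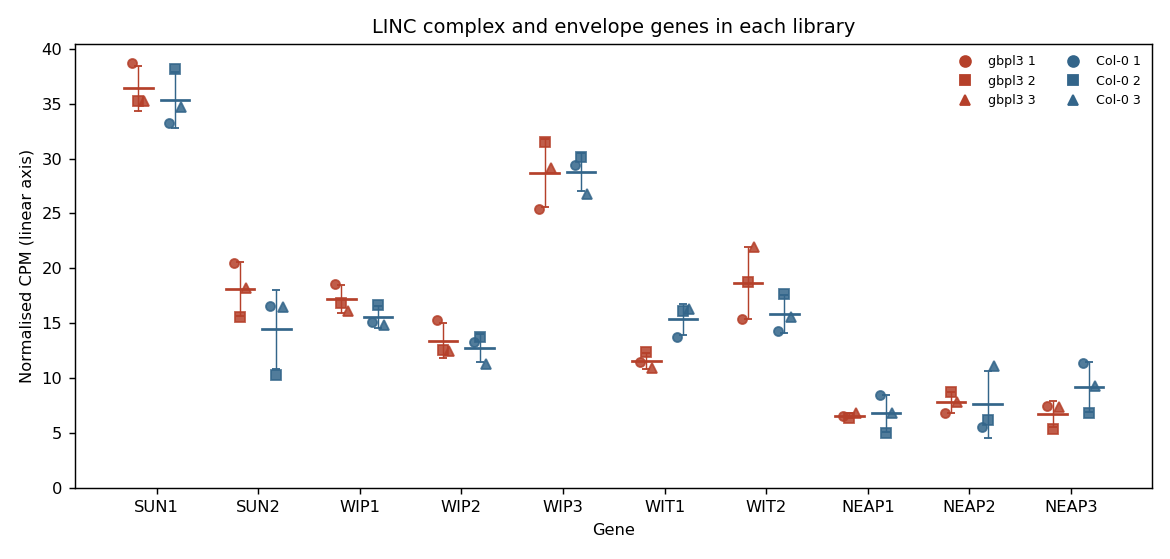
Normalised CPM (vertical axis, linear) of the 10 genes in each library, with gbpl3 in red left of Col-0 in blue, replicates by symbol, and lines and bars for the mean and SD of 3 libraries. The gbpl3 libraries of WIT1 (10.9 to 12.4 CPM) all lie below its Col-0 libraries (13.7 to 16.3 CPM), and the groups overlap for the other 9 genes.

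WIT1 had the smallest p-value of the 10 genes. WIT1 (AT5G11390, chr5:3633649-3636934, plus strand, 5 exons) had 11.5, 12.4 and 10.9 CPM in gbpl3, against 13.7, 16.1 and 16.3 CPM in Col-0. Every gbpl3 library was below every Col-0 library, as was also the case for 13.6% of all tested genes, and 28.1% of them showed no overlap in either direction. The log2 fold change was -0.40 (SE 0.16), a fold of 0.755 with an interval of 0.598 to 0.954. Its unadjusted p was 0.0212 and its adjusted p was 0.124 by edgeR, so it was not called. Over 15 alternative settings the adjusted p ran from 0.0961 to 0.311 and the log2 fold change from -0.48 to -0.36. WIT1 overlaps AT5G11400 on the opposite strand by 321 bases, and that gene was at 0 counts in every library. They share 311 exon bases. Because the strand setting of the counting is not given, the assignment of reads there is uncertain.

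WIT2 stood on the other side of 0. WIT2 (AT1G68910, chr1:25908046-25911277, minus strand, 3 annotated transcripts) had 15.3, 18.7 and 22.0 CPM in gbpl3, against 14.3, 17.7 and 15.5 CPM in Col-0. Gbpl3 replicate 3 was the highest library, while gbpl3 replicate 1 lay within the Col-0 range. The log2 fold change was 0.24 (SE 0.16, interval of the fold 0.934 to 1.49, adjusted p = 0.409), and it was 0.11 without gbpl3 replicate 3, 0.36 without gbpl3 replicate 1 and 0.32 without Col-0 replicate 2.

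The 3 NEAP genes had the lowest summed counts of the 10, between 61 and 130 per library, and the widest intervals. NEAP1 (AT3G05830, chr3:1736307-1738749, plus strand) had 6.53, 6.34 and 6.79 CPM in gbpl3, against 8.46, 5.01 and 6.85 CPM in Col-0. The gbpl3 libraries lay inside the Col-0 range, with a coefficient of variation of 3.42% in gbpl3 and 25.5% in Col-0 (fold change 0.969, interval 0.685 to 1.37, adjusted p = 0.944). At 69, 82 and 73 counts in the gbpl3 libraries, counting error alone exceeds a spread of 3.42%. The spreads of the genotypes are therefore not compared. NEAP2 (AT5G26770, chr5:9407647-9410138, minus strand) had 6.82, 8.74 and 7.81 CPM in gbpl3, against 5.58, 6.16 and 11.1 CPM in Col-0. Here too the gbpl3 libraries lay inside the Col-0 range, and Col-0 replicate 3 was the highest (fold change 1.03, interval 0.713 to 1.49, adjusted p = 0.947).

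NEAP3 (AT1G09470, chr1:3055231-3057543, minus strand) had 7.48, 5.34 and 7.35 CPM in gbpl3, against 11.3, 6.82 and 9.30 CPM in Col-0. Col-0 replicate 2 lay between the gbpl3 libraries. The log2 fold change was -0.45 (SE 0.23, interval of the fold 0.522 to 1.03, adjusted p = 0.259), the largest in size of the 10. It was -0.63 without Col-0 replicate 2 (adjusted p = 0.0854) and -0.26 without Col-0 replicate 1 (adjusted p = 0.644). NEAP3 shares 130 exon bases with AT1G09460 on the opposite strand, which had 1223 counts to 531 of NEAP3. The strand setting of the counting is not given in the sources used here, so the assignment of reads in that overlap is uncertain. AT1G09460 itself had a log2 fold change of -0.32 (adjusted p = 0.24).

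Ratios of relatives within a library do not depend on how libraries are scaled, and they compare directly how relatives differed between genotypes. Among the 8 pairs within the SUN, WIP, WIT and NEAP families, 2 had all gbpl3 libraries on 1 side of all Col-0 libraries. Among single tested genes 28.1% were without overlap, and the share among gene pairs in general was not computed. The WIT2 to WIT1 ratio of counts was 1.34, 1.51 and 2.02 in gbpl3 replicates 1 to 3, against 1.04, 1.10 and 0.956 in Col-0 replicates 1 to 3. On the log2 scale it averaged 0.68 ± 0.30 in gbpl3 and 0.04 ± 0.10 in Col-0 (SD, n = 3 each), a difference of 0.63. In a two-sided exact permutation test p was 0.10, the smallest that 3 against 3 libraries can give, and adjusted over the 8 pairs it was 0.40. With each library left out in turn the difference lay between 0.47 and 0.76.

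The NEAP3 to NEAP1 ratio was 1.14, 0.841 and 1.08 in gbpl3, against 1.34, 1.36 and 1.36 in Col-0. All 3 gbpl3 ratios were below the Col-0 ratios. The difference of log2 means was -0.42 (exact permutation p = 0.10, adjusted 0.40). Both genes had only 61 to 130 counts per library, and the Col-0 SD of 0.012 on the log2 scale is smaller than counting error alone. The separation is therefore less firm than that SD makes it look. Reads in the 130 exon bases that NEAP3 shares with AT1G09460 are uncertain here too. The SUN2 to SUN1 ratio was 0.528, 0.442 and 0.517 in gbpl3, against 0.499, 0.269 and 0.475 in Col-0, and only Col-0 replicate 2 stood apart. Its log2 difference of 0.31 was 0.022 without that library. The NEAP3 to NEAP2 ratio was 1.10, 0.611 and 0.940 in gbpl3, against 2.03, 1.11 and 0.835 in Col-0, a log2 difference of -0.52, which is larger in size than that of NEAP3 to NEAP1, but with groups that overlapped. With each library left out in turn it lay between -0.81 and -0.17. For the SUN2 to SUN1 ratio and the remaining 5 pairs, NEAP3 to NEAP2 included, the groups overlapped, with exact permutation p-values of 0.40 to 0.90. Differences of the 3 WIP pairs were -0.15 to -0.07. No pair could reach an adjusted p of 0.05 in this design, so the WIT and NEAP ratios are descriptions of these libraries.

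**Figure D3:**
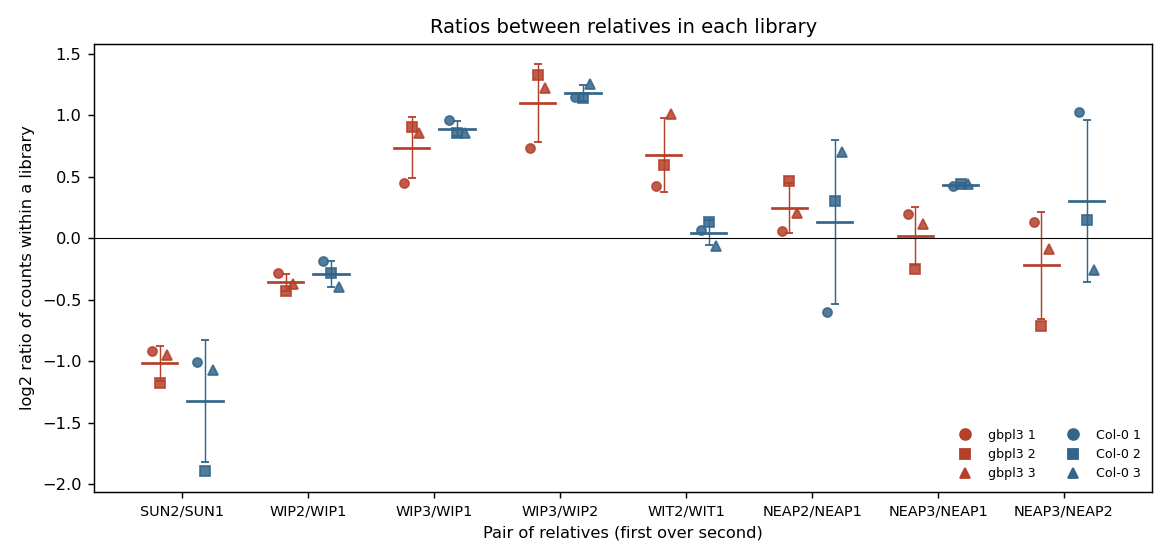
Log2 ratio of counts between relatives within each library (vertical axis) for 8 pairs, with gbpl3 in red left of Col-0 in blue, replicates by symbol, and lines and bars for the mean and SD of 3 libraries. The groups are separate for WIT2/WIT1 (means 0.68 in gbpl3 and 0.04 in Col-0) and for NEAP3/NEAP1 (0.020 and 0.44).

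Levels between genes were compared per length, as FPKM (counts scaled to the library's total and to the kilobases of exon union). SUN1 was the highest of the 10 at 18.8 ± 1.13 FPKM in gbpl3 and 19.1 ± 1.08 FPKM in Col-0 (SD, n = 3 each). WIP3 followed at 15.6 ± 1.90 FPKM in gbpl3 and 16.4 ± 0.938 FPKM in Col-0, and SUN2 at 9.70 ± 1.21 FPKM and 8.15 ± 2.13 FPKM. Within each of the 6 libraries SUN1 was above WIP3, most narrowly in gbpl3 replicate 2 (18.6 against 17.6 FPKM). Between libraries the lowest SUN1 value was 17.71 FPKM and the highest WIP3 value 17.62 FPKM. These ranges overlapped on the longest transcript (17.78 FPKM as the highest WIP3 value). They also overlapped with TMM scaling of the library totals, an alternative chosen after seeing the data (17.54 FPKM as the lowest SUN1 value, 17.58 FPKM as the highest WIP3 value). TMM scaling multiplies both genes of a library by the same factor, so it leaves their order within a library unchanged. WIP3 lay above SUN2 without overlap on the exon union and on the longest transcript. On the deposited FPKM it averaged 8.14 over the 6 libraries, below the 8.92 of SUN2. That FPKM used a length of 3526 bases for WIP3, while its longest annotated transcript has 1773 bases. From SUN2 downward each gene's range overlapped that of the next, in the order SUN2, WIP1, WIT2, WIP2, NEAP3, WIT1, NEAP2 and NEAP1, so neighbours in that order were not separated by their spread. NEAP1 and NEAP2 were the lowest and were not separated, with 3.82 ± 0.033 FPKM in gbpl3 and 4.15 ± 1.12 FPKM in Col-0 for NEAP1, and 3.99 ± 0.559 FPKM in gbpl3 and 4.10 ± 1.65 FPKM in Col-0 for NEAP2. The SD of 0.033 FPKM for NEAP1 in gbpl3 is smaller than counting error alone. On the longest transcript and on the deposited FPKM NEAP2 had the lower mean, where the deposited length of NEAP2 was 4450 bases and its longest transcript 1836 bases.

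**Figure D4:**
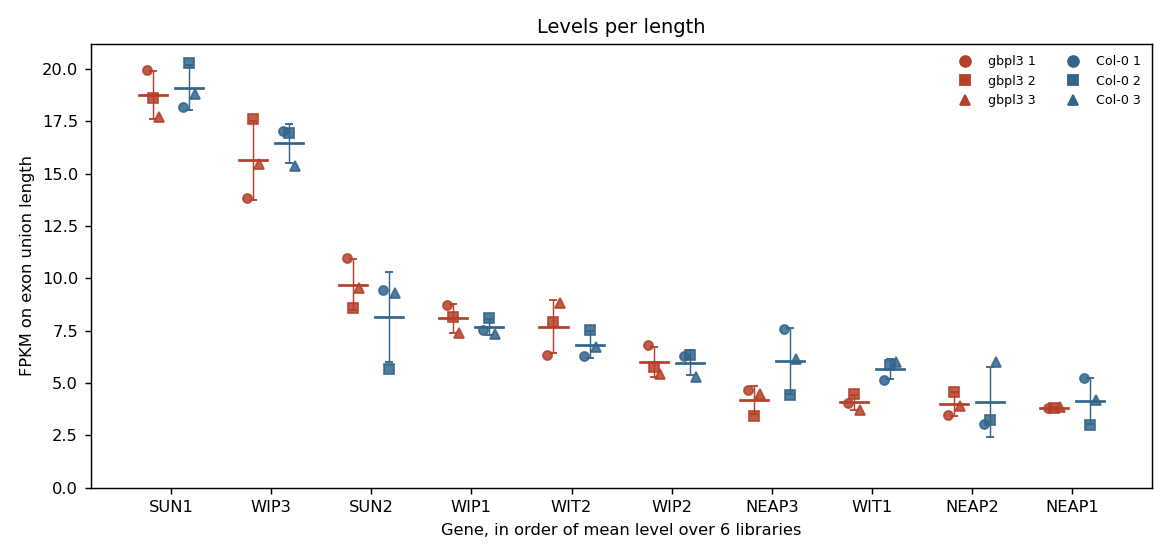
FPKM on the exon union length (vertical axis, linear) of the 10 genes, ordered by their mean over the 6 libraries, with gbpl3 in red left of Col-0 in blue, replicates by symbol, and lines and bars for the mean and SD of 3 libraries. SUN1 and WIP3 stand above the other 8 genes in both genotypes on this length, and from SUN2 on each range overlaps that of the next gene.

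The levels per length were also summed by family. SUN1 and SUN2 together had 28.5 ± 2.14 FPKM in gbpl3 and 27.3 ± 1.11 FPKM in Col-0, and the 3 WIP genes 29.7 ± 1.65 FPKM and 30.1 ± 1.82 FPKM. The WIT genes together had 11.8 ± 1.23 FPKM in gbpl3 and 12.5 ± 1.01 FPKM in Col-0 (SD, n = 3 each). Within the WIT sum, WIT1 made up 38.9%, 36.1% and 29.7% in gbpl3 libraries, against 45.0%, 43.8% and 47.2% in Col-0 libraries. WIP3 made up 52.6 ± 4.78% of the WIP sum in gbpl3 and 54.7 ± 0.585% in Col-0, and SUN1 66.0 ± 2.17% of the SUN sum in gbpl3 and 70.3 ± 6.82% in Col-0. The NEAP sum was 12.0 ± 0.212 FPKM in gbpl3 and 14.3 ± 3.14 FPKM in Col-0, where replicate 2 had 10.7 FPKM and the others 15.8 and 16.4 FPKM.

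Of 19 other LINC, envelope and lamina genes, 15 passed the filter and none was called by edgeR, with none at an unadjusted p under 0.05 and none called by DESeq2 or limma. Their median log2 fold change was -0.11, with 3 above and 12 below 0, from -0.25 for CRWN2, a lamina-like coiled-coil gene, to 0.31 for GIP2. Over all 20677 tested genes, edgeR called 10.7%, and 23.6% had an unadjusted p under 0.05. Of all tested genes, 10233 were above and 10444 below 0. The mid-SUN genes SUN3 and SUN4, whose SUN domain lies in the middle of the protein, had 23.0 ± 2.27 and 10.2 ± 1.46 CPM in gbpl3 and 24.2 ± 2.72 and 11.2 ± 2.34 CPM in Col-0 (SD, n = 3 each). The KASH genes SINE1 and SINE2 had log2 fold changes of -0.0012 (SE 0.17) and 0.15 (SE 0.24). RANGAP1 and RANGAP2, which encode the RanGAP proteins that WIP and WIT proteins hold at the envelope, had 91.2 ± 12.3 and 21.1 ± 2.06 CPM in gbpl3 and 90.9 ± 10.4 and 23.8 ± 2.38 CPM in Col-0. Their log2 fold changes were 0.0059 (SE 0.12) and -0.18 (SE 0.14, adjusted p = 0.473 by edgeR). RANGAP1, with 6151 counts, shares 107 exon bases with AT3G63140, which had 32704 counts, and 218 with AT3G09895, which had 685. GIP2, with 321 counts, shares 441 exon bases with AT1G73805, which had 419, and SINE2 shares 26 with AT3G03960, which had 9473. These partners lie on the opposite strand, so reads there are uncertain. On the same strand, RANGAP2, with 1518 counts, shares 70 exon bases with AT5G19330, which had 5497. SUN3, with 1593 counts, shares 41 with AT1G22885, which had 744. Reads in these same-strand bases are uncertain under any strand setting.

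The 4 genes that did not pass the filter were SINE3, SINE4, NEAP4 and CRWN4. SINE3 had 4, 31 and 7 counts in gbpl3, against 8, 0 and 7 in Col-0, and it shares 44 exon bases with AT3G06590 on the same strand, which had 1814 counts. NEAP4 (chr1:3061170-3061743), a short relative of NEAP3 on the same chromosome and strand, and SINE4 had 0 counts in all libraries, which allows up to 0.232 to 0.284 CPM in gbpl3 libraries and 0.246 to 0.307 CPM in Col-0 libraries, at 3 counts and for counting error only. CRWN4 also had 0 counts in all libraries. Its annotated span lies wholly within that of AT5G65780 on the same strand, which had 3087 counts, and the pair share 466 exon bases. The part of this overlap in the 0 counts of CRWN4 was not tested, and no upper limit is given for it.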

How the data were processed

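The authors deposited raw counts per gene and FPKM values. The submitters' processing notes name TAIR10, HISAT2 2.0.4 and HTSeq 0.6.1p1. No source used here gives the strand setting or read filters. Library kits were strand-specific, per the labels' protocols. Dividing counts by library totals returned the deposited FPKM for 1 length per gene. That length was compared with the exon union of the RefSeq TAIR10.1 annotation, within 0.5 bases. It equalled the union in 99.0% of 14982 genes with 1 transcript but in 1.72% of 10649 genes with several. In 77.2% of the genes with several it equalled the summed lengths of distinct exons, where bases shared by overlapping exons count repeatedly. For WIP3 and WIT2 it equalled neither. Their deposited lengths were 3526 and 3562 bases, against 2656 and 3312 bases of summed distinct exons and 1789 and 2364 bases of exon union. Levels per length were therefore recomputed from counts on the exon union, without TMM scaling (with it as an alternative added after seeing the data). Names of NEAP1 to NEAP4, SINE1 to SINE4 and GBPL3 come from background knowledge, and other names and all coordinates from TAIR10.1.

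Counts were filtered with filterByExpr, TMM-scaled and fitted in edgeR 4.0.16 under R 4.3.3 (quasi-likelihood test, Benjamini-Hochberg, threshold 0.05) over 20677 genes. SE is the log2 fold change over the square root of F. CPM are TMM-normalised. Group means of log2 count ratios were compared by exact permutation. Alternatives tried were DESeq2 1.42.0, upper-quartile or RLE scaling, other filters, a replicate block, each library left out, and limma 3.58.1 on log2 FPKM with a pseudocount of 1 or 0.1, for genes averaging 1 FPKM or more or for all. Library pairs within a genotype differed by 4.97 to 14.4 chi-square per degree of freedom, above sampling noise. The named genes were the 10 members, GBPL3, relatives and partners of the members, called genes of the envelope list (none), and, chosen after their values were seen, CRWN2, GIP2, SINE3, SINE4, CRWN4 and overlapping genes. Members, lists and tests were chosen with earlier results of these data known.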

Additional observations from a re-analysis of the deposited data

How the results depend on the processing

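Under all 15 alternatives 0 of the 10 members and 0 of the other envelope genes were called. Of 150 member values under alternatives, 136 kept their direction and 14 changed it, none of them called and the largest in size 0.15. SUN1 stood at -0.025, -0.026 and -0.025 and RANGAP1 at -0.063, -0.066 and -0.063 with limma on log2(FPKM + 1), log2(FPKM + 0.1) and log2(FPKM + 1) without filter, and SINE1 at 0.0027 with upper-quartile scaling. With each library left out, log2 fold changes crossed 0 for SUN1 (-0.0065 to 0.099), WIP2 (-0.031 to 0.12), WIP3 (-0.079 to 0.074), NEAP1 (-0.23 to 0.15), NEAP2 (-0.14 to 0.41), SUN3 (-0.16 to 0.0078), SINE1 (-0.11 to 0.089), SINE2 (-0.035 to 0.28) and RANGAP1 (-0.085 to 0.10), as did the ratios WIP3 over WIP2 (-0.20 to 0.098) and NEAP2 over NEAP1 (-0.26 to 0.39). Over all genes, leaving out 1 library gave 629 to 1443 higher and 320 to 1238 lower calls beside 1253 and 969. The limma fits gave 424 higher and 390 lower, 384 and 368, and 294 and 227. The causes were not tested. The replicate numbers did not pair the libraries (correlations of same-numbered deviations -0.059, -0.089 and 0.040, and not every library correlated best with its own number), and the replicate block gave 618 lower calls over all genes and 0 among members. On the deposited FPKM, mean levels over 6 libraries were 8.14 for WIP3, 4.82 for WIT2, 2.80 for NEAP1, 1.73 for NEAP2 and 2.63 for NEAP3, against 16.0, 7.27, 3.99, 4.05 and 5.13 on the exon union, because the deposited lengths of these genes are 1.42 to 2.34 times the union. Counts of 61 to 130 per library limit the NEAP genes.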
